A study of Homo sapiens with 6 samples.

Results

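Cassette exons of 28 to 60 nt are exons that a transcript can include or skip as a unit and that sit just above the size of microexons, taken here as 3 to 27 nt. They were chosen from the deposited splicing table by length, by coverage (in all 6 libraries, 10 or more reads and a coverage score no worse than LOW) and by a mean inclusion of 5% to 95% in the Control libraries. Of the 223565 exon events listed, 7815 of any length met these coverage and Control limits, and 1143 of them, in 981 genes, were 28 to 60 nt long. The level in Control therefore chose the exons and is given as a description only. Inclusion is the deposited percent for an event. It sets the mean of the reads on either side of the exon against the skipping reads, so it is not the share of all junction reads that carry the exon. A percent recomputed in this way lay within 1 point of the deposited one for 75.7% of the values of these exons.

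The cells were SKNBE2, an established human neuroblastoma line with the genotype MYCN amplified, labelled as neuroblasts. Control libraries came from cells labelled as Control, with no vehicle named. The DFMO libraries came from cells given difluoromethylornithine, which blocks ornithine decarboxylase and with it the first step of polyamine synthesis, at 250 µM over 4 days. Each group had 3 libraries from this 1 line, and nothing in the labels says that they were separate cultures, so p-values measure the spread between these samples, which may be technical. Event reads per library ran from 77648922 to 103250467, and the exon log odds parted the groups on the first principal component (33.6% of the variance). Of 14 markers of noradrenergic neuroblasts, 13 had measured transcripts. The 9 immune and epithelial markers had no covered exon event, and of 16 mesenchymal, Schwann cell and fibroblast markers 6 had one. In bulk RNA, fewer cells with a transcript and less of it per cell cannot be told apart.

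A short exon leaves little room for the exon-bound proteins that help the spliceosome bridge from one splice site to the other, so many such exons rely on signals in the introns beside them and on regulators such as the SRRM4, RBFOX, PTBP, MBNL and NOVA proteins. Many exons in this size range are alternatively spliced in neurons, where they add a short stretch to proteins of synapses, membrane traffic and the cytoskeleton. An exon whose length is a multiple of 3 keeps the reading frame when it is skipped.

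The sequences of 14 exons whose inclusion changed follow, since they are the stretches gained or lost in the messages described below: 12 that rose and, at the end, 2 that fell. They were read from GENCODE 29 transcripts on GRCh38, in the sense of the transcript. Capitals mark the exon and lower case the last 10 bases of the exon before it and the first 10 of the exon after it in an annotated coding transcript. All 14 have a length that is a multiple of 3.
MTA1, 51 nt, chr14:105449359-105449409, plus strand: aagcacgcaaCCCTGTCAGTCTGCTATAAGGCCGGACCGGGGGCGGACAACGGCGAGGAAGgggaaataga
FIP1L1, 45 nt, chr4:53379073-53379117, plus strand: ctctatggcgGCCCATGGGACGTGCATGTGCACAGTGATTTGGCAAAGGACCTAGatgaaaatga
SPAG9, 39 nt, chr17:50975863-50975901, minus strand: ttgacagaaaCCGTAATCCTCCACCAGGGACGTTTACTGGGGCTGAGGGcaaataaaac
UNC13A, 30 nt, chr19:17620693-17620722, minus strand: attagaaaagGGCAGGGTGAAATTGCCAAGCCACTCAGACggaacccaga
CLSTN1, 30 nt, chr1:9756481-9756510, minus strand: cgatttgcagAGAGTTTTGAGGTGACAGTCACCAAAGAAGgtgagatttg
CASK, 36 nt, chrX:41555600-41555635, minus strand: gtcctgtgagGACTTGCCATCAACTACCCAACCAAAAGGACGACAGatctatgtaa
SEC31A, 39 nt, chr4:82862534-82862572, minus strand: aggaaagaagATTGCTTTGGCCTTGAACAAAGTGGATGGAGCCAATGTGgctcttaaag
EPB41, 57 nt, chr1:29058589-29058645, plus strand: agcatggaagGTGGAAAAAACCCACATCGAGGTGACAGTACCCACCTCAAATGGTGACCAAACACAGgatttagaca
EPB41, 42 nt, chr1:29058811-29058852, plus strand: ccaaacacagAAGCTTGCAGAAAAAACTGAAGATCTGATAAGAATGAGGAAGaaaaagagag
MAP2K7, 48 nt, chr19:7905808-7905855, plus strand: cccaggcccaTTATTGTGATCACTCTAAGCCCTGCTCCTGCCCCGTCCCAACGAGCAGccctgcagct
SOS1, 45 nt, chr2:38989270-38989314, minus strand: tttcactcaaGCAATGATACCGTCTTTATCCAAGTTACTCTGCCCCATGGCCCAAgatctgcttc
APP, 57 nt, chr21:25997360-25997416, minus strand: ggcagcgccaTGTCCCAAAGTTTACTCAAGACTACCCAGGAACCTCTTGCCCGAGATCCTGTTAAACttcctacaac
FAM122B, 57 nt, chrX:134789580-134789636, minus strand: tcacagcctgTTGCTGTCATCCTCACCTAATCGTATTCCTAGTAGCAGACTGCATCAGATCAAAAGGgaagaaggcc
ADAM22, 51 nt, chr7:87964634-87964684, plus strand: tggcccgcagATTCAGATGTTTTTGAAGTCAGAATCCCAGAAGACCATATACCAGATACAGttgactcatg

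More short exons rose than fell with DFMO. Of the 1143 exons, 1032 could be tested, and the calls were 34 higher and 5 lower, spread over 37 genes. A call needed an adjusted p below 0.05 from limma on the log2 odds of inclusion and group means at least 10 percentage points apart. The called share was 3.78%, against 3.45% of the 7500 tested exons of every length, which were not held to the Control limits. The backgrounds by direction were 2.71% higher and 0.747% lower. In all 39 called exons the 3 Control libraries did not overlap the 3 DFMO libraries, as in 27.6% of the tested short exons and 26.2% of all tested exons. The median size of a called difference was 19.7 points, and 19 of the 39 were 20 points or more. The calls rest on letting the variance follow the expected counting error: without this trend limma called 3 short exons higher and 0 lower (174 reached p below 0.05 before adjustment, where 232 did with the trend). Quasi-binomial regression likewise called 3 and 0 (187 before adjustment). Of the 39, limma without the trend kept MTA1 and AFMID, and the regression kept MTA1, DZIP1 and APP.

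**Figure D1:**
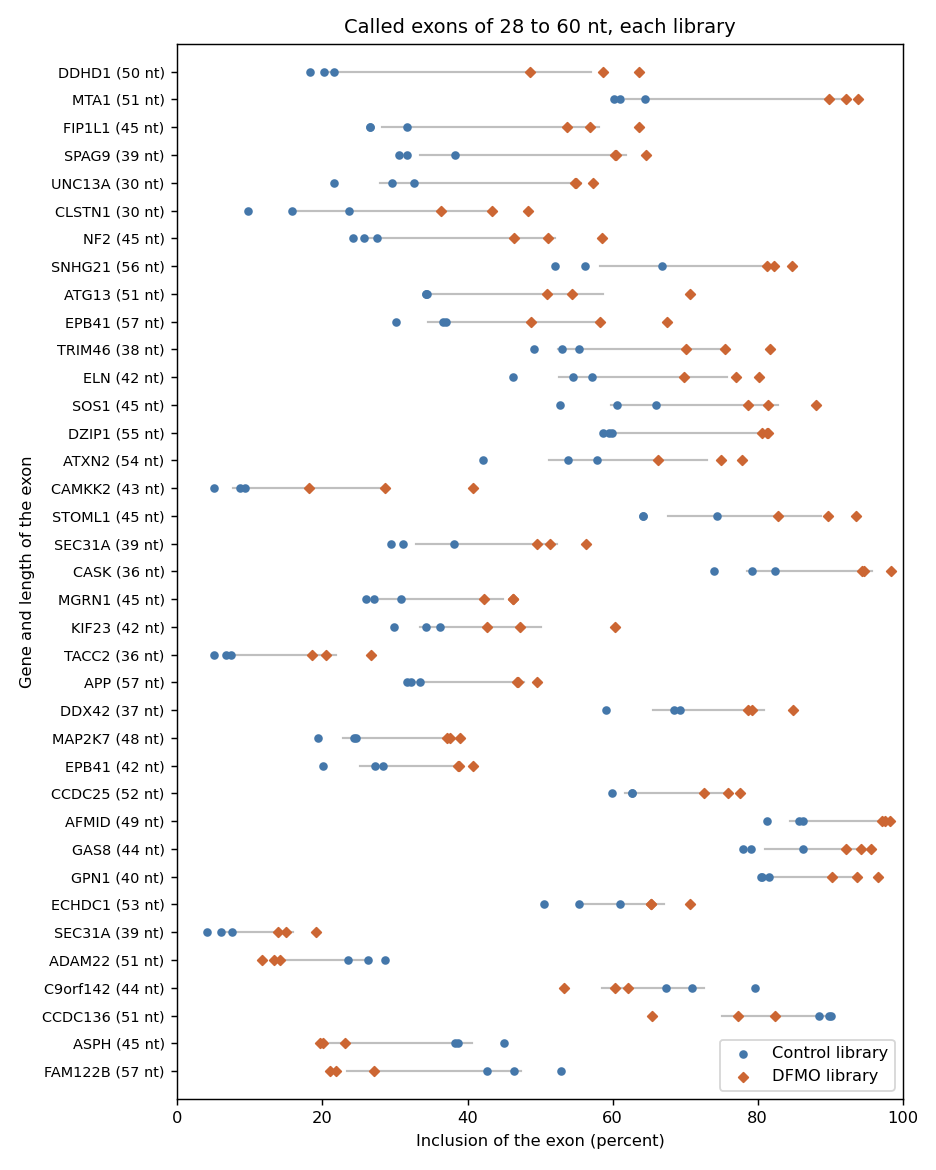
Inclusion in percent (x axis) of 37 of the 39 called exons, by gene and length (y axis), with 1 point for each Control library (blue circles) and each DFMO library (orange diamonds) and a grey line joining the group means. The 32 exons drawn that rose stand above the 5 that fell, and no exon has overlapping groups.

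Across the 1032 tested exons the shift was small. The median difference was 1.62 points and 64.2% of the exons had a higher mean with DFMO. Over all tested exons, which were not held to the Control limits, these values were 1.24 points and 60.3%. Mean inclusion over these 1032 exons was 52.9%, 52.7% and 52.4% in the Control libraries and 55.0%, 55.1% and 54.7% with DFMO, so each DFMO library lay above each Control library by 1.84 points or more. Exons of 61 to 250 nt within the same Control limits had a median of 1.32 points with 61.7% above 0, and 154 of 5265 were called higher and 37 lower. In exons of 3 to 27 nt within those limits the median was 1.65 points with 63.0% above 0, and 8 of 211 were called higher and 1 lower. These values are side by side as a description, and no difference between size classes was tested.

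**Figure D2:**
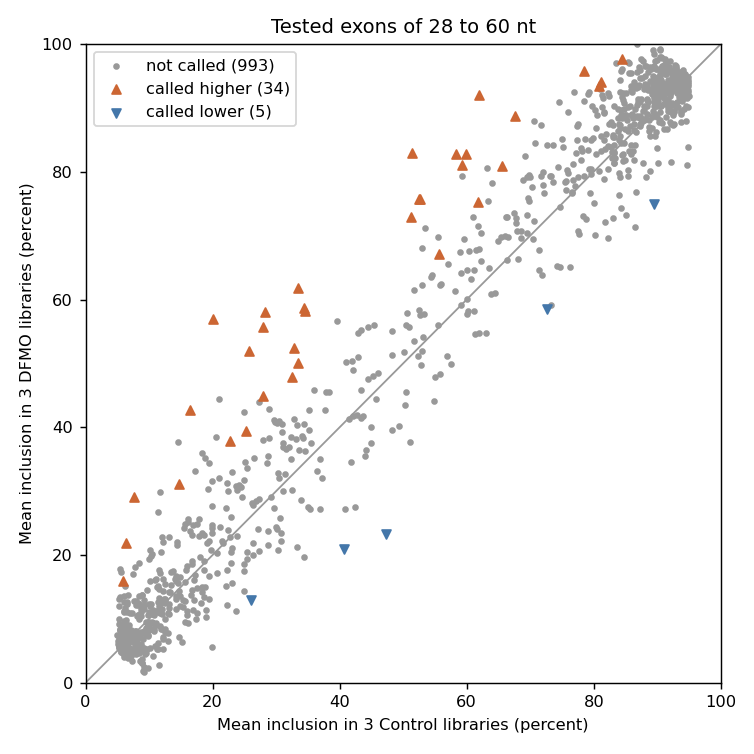
Mean inclusion in the 3 DFMO libraries (y axis, percent) against the 3 Control libraries (x axis, percent) for the 1032 tested exons of 28 to 60 nt, with the diagonal of no difference. Upward triangles are the 34 exons called higher, downward triangles the 5 called lower and grey points the 993 not called.

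Among genes of chromatin and transcription, an exon of the corepressor subunit MTA1 rose. MTA1 is a subunit of the nucleosome remodelling and deacetylase complex NuRD. Its 51-nt coding exon (chromosome 14, 105449359 to 105449409, plus strand) had 61.1%, 64.4% and 60.1% in the Control libraries and 93.8%, 89.9% and 92.2% with DFMO (log2 odds 2.83, SE 0.23, adjusted p = 6.59e-06). Its groups were 25.4 points apart at the nearest libraries. The list held 37 short exons, of which 33 were tested, 2 were called higher and 0 lower, and the median difference was 3.07 points. Over all tested exons, 2.71% were called higher and 0.747% lower with a median of 1.24 points, and the counts of each list stand beside these shares. A 45-nt coding exon of FOXM1, a transcription factor of dividing cells, went from 62.3% ± 2.12 to 70.3% ± 3.44 and a 49-nt exon of MORF4L2, of the NuA4 acetyltransferase, from 23.0% ± 0.268 to 18.8% ± 0.544. Both passed the adjusted p (0.0323 and 0.0269) but not the 10-point minimum.

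In the mRNA-processing list, exons of FIP1L1 and DDX42 were called higher. FIP1L1 is a subunit of the complex that cleaves and polyadenylates pre-mRNA, and its 45-nt coding exon (chromosome 4, 53379073 to 53379117, plus strand) had 26.5%, 31.7% and 26.5% in the Control libraries and 53.7%, 63.7% and 56.9% with DFMO (log2 odds 1.81, SE 0.28, adjusted p = 0.00166). The groups lay 22.0 points apart at their nearest libraries. DDX42, an RNA helicase of the spliceosome, has a 37-nt coding exon, not a multiple of 3, at 59.1%, 69.2% and 68.4% in Control and 79.2%, 84.8% and 78.6% with DFMO (adjusted p = 0.0112). Without Control replicate 1, the lowest library, the DDX42 difference was 12.1 points and no longer called. The list had 30 tested exons, 2 called higher and 0 lower (2.71% and 0.747% of all tested exons), with a median of 1.79 points. A 36-nt exon of HNRNPA2B1, which separates the A2 and B1 forms of this RNA-binding protein, went from 19.9% ± 1.03 to 27.7% ± 1.86 (adjusted p = 0.000529) at 3001 or more reads per library, short of 10 points. A 36-nt exon of the splicing factor SRSF7 went down from 85.4% ± 1.04 to 79.3% ± 1.49 (adjusted p = 0.00614), also short of it.

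Several called exons lay in genes for vesicle traffic and the synapse. UNC13A, which readies synaptic vesicles for fusion, has a 30-nt coding exon (chromosome 19, 17620693 to 17620722, minus strand) with 32.6%, 29.5% and 21.5% in Control and 55.0%, 57.3% and 54.8% with DFMO (adjusted p = 0.0111). The lowest DFMO library was 22.2 points above the highest Control library, at 52 to 102 reads per library. CASK is a scaffold of synapses with a kinase-like domain. Its 36-nt coding exon (chromosome X, 41555600 to 41555635, minus strand) went from partial to nearly full inclusion, 74.0%, 82.4% and 79.2% in the Control libraries and 94.3%, 98.4% and 94.7% with DFMO (log2 odds 2.68, SE 0.55, adjusted p = 0.0107). The synapse list had 26 tested exons, 2 called higher and 0 lower, with a median of 3.13 points. A 49-nt exon of SNAP25, a vesicle fusion protein, went from 61.8% ± 2.90 to 71.5% ± 1.47 (adjusted p = 0.0311), just short of 10 points. SYT1, the calcium sensor of release, had a 49-nt exon at 14.7% ± 2.89 and 7.10% ± 3.33, which did not pass (adjusted p = 0.0694). The UNC13A call ended without Control replicate 3 (24.6 points) and the CASK call without Control replicate 1 (14.98 points).

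SEC31A, a subunit of the COPII coat that buds vesicles from the endoplasmic reticulum, held a pair of called exons, both 39 nt, coding and higher with DFMO. The first along the gene (chromosome 4, 82862534 to 82862572, minus strand) had 29.4%, 31.1% and 38.1% in the Control libraries and 49.5%, 51.3% and 56.3% with DFMO (log2 odds 1.17, SE 0.22, adjusted p = 0.00609). Its groups were 11.4 points apart at the nearest libraries. The second (chromosome 4, 82830937 to 82830975, minus strand) was mostly skipped and had 4.15%, 6.07% and 7.51% in Control and 19.1%, 14.9% and 13.9% with DFMO (adjusted p = 0.0328). It stayed above every Control library, but it lost the call when any of the 6 libraries was left out (8.52 to 11.1 points), with the mean-percent filter removed and with junction read numbers. ATG13 belongs to the kinase complex that starts autophagy, and its 51-nt exon in the 5′ UTR rose from 34.3% ± 0.0794 to 58.7% ± 10.5 (adjusted p = 0.0182). The 3 Control libraries of ATG13 agreed within 0.15 points while DFMO ran from 50.98% to 70.6%, and the call ended on dropping Control replicate 3 or DFMO replicate 3 (18.4 to 24.3 points). DDHD1, a phospholipase, had a 50-nt exon that is not annotated, which rose to at least 48.7% in every DFMO library from at most 21.6% in Control (adjusted p = 0.00927) on 28 to 55 reads per library, the thinnest coverage among called exons. Of 24 tested exons of the membrane traffic list, 4 were called higher and 0 lower, with a median of 3.77 points, beside 2.71% higher, 0.747% lower and 1.24 points over all tested exons.

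CLSTN1 (calsyntenin-1) ties cargo vesicles to kinesin. Its 30-nt coding exon (chromosome 1, 9756481 to 9756510, minus strand) had 15.8%, 9.73% and 23.6% in Control and 43.4%, 48.3% and 36.3% with DFMO (log2 odds 1.93, SE 0.50, adjusted p = 0.0361). Reads were few (37 to 68 per library) and the Control libraries spread over 13.9 points. The call ended with the mean-percent filter removed, with the replicate block and on dropping any library except Control replicate 3 (22.9 to 29.4 points).

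In the cytoskeleton list, the called exons were 2 consecutive ones of EPB41, protein 4.1R, which links spectrin to actin and to membrane proteins. The 57-nt exon (chromosome 1, 29058589 to 29058645, plus strand) had 36.6%, 30.2% and 37.0% in the Control libraries and 58.2%, 67.4% and 48.8% with DFMO (log2 odds 1.40, SE 0.28, adjusted p = 0.00997). The 42-nt exon, 165 nt further along, had 27.3%, 28.4% and 20.03% in Control and 38.8%, 40.7% and 38.7% with DFMO (adjusted p = 0.0332). Both rose without overlap, the longer one by 23.6 points and the shorter by 14.2. The call of the 42-nt exon ended with the mean-percent filter removed and on dropping any library except Control replicate 2 (11.6 to 15.2 points). The list had 23 tested exons, 2 called higher and 0 lower, with a median of 7.34 points against 1.24 over all tested exons. Its members ADD1 (adducin, 34 nt, 16.2% ± 1.17 to 25.7% ± 0.866) and LIMCH1 (36 nt, 85.6% ± 2.88 to 95.4% ± 1.84) passed the adjusted p (0.00456 and 0.0213) but differed by under 10 points.

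In the list of signalling kinases and GTPases, exons of SOS1, MAP2K7 and CAMKK2 were called higher. SOS1, which loads Ras with GTP, has a 45-nt coding exon (chromosome 2, 38989270 to 38989314, minus strand) at 66.0%, 52.8% and 60.7% in the Control libraries and 78.7%, 88.1% and 81.4% with DFMO (adjusted p = 0.0126). MAP2K7 is the kinase that activates JNK, and its 48-nt coding exon (chromosome 19, 7905808 to 7905855, plus strand) had 24.7%, 19.4% and 24.4% in Control and 37.6%, 37.2% and 38.98% with DFMO (log2 odds 1.05, SE 0.23, adjusted p = 0.0166). DFMO libraries of MAP2K7 agreed within 1.78 points, and all stood at least 12.5 points above Control. CAMKK2, a calcium-dependent kinase upstream of AMPK, has a 43-nt coding exon, not a multiple of 3, at 9.32%, 5.06% and 8.61% in Control and 28.6%, 18.1% and 40.8% with DFMO (adjusted p = 0.0300). Its DFMO libraries spread over 22.7 points. Of the 23 tested exons of the list, 3 were called higher and 0 lower (2.71% and 0.747% of all tested exons), with a median of 4.90 points. Calls ended for SOS1 without Control replicate 2 (19.4 points), for MAP2K7 on dropping Control replicate 2 or DFMO replicate 1 (13.4 to 15.3 points) and for CAMKK2 on dropping any library except DFMO replicate 2 (15.7 to 22.3 points).

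SPAG9 (JIP4), a scaffold of JNK kinases and an adaptor of motor proteins, was outside the lists. Its 39-nt coding exon (chromosome 17, 50975863 to 50975901, minus strand) had 38.3%, 30.5% and 31.7% in the Control libraries and 60.5%, 64.5% and 60.3% with DFMO (log2 odds 1.68, SE 0.20, adjusted p = 0.000230). NF2 encodes merlin, a tumour suppressor at the membrane skeleton. Its 45-nt exon, annotated as coding over part of its length only (chromosome 22, 29683020 to 29683064, plus strand), had 24.3%, 25.7% and 27.5% in Control and 46.4%, 58.5% and 51.1% with DFMO (adjusted p = 0.0121). The exons rose by 28.3 and 26.2 points, with 22.0 and 18.9 points between the nearest libraries of the groups.

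The best measured called exon lay in APP, the amyloid precursor protein. This 57-nt coding exon (chromosome 21, 25997360 to 25997416, minus strand) was covered by 1952 to 3029 reads per library and had 32.3%, 33.4% and 31.7% in the Control libraries and 47.0%, 46.9% and 49.6% with DFMO (log2 odds 0.93, SE 0.07, adjusted p = 5.15e-06). Both groups were tight, with SDs of 0.872 and 1.54 points. APP was the 1 called exon among 16 tested in the list of neural adhesion molecules and channels, with 0 lower and a median of 0.71 points. Others in that list did not pass: a 30-nt exon of NCAM1, a neural adhesion molecule, had 40.9% ± 2.43 and 50.2% ± 2.99 (adjusted p = 0.160), and a 48-nt exon of PTPRS, a receptor phosphatase, 6.51% ± 0.325 and 12.6% ± 0.789 (adjusted p = 0.0637).

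Further exons that rose lay in genes of varied function. ELN, elastin, had 9 of the 1143 exons, the most of any gene, and was singled out after its values were seen. Of its 7 tested exons, 1 was called, a 42-nt coding exon (chromosome 7, 74047675 to 74047716, plus strand) at 57.1%, 46.3% and 54.5% in Control and 77.0%, 80.2% and 69.9% with DFMO (adjusted p = 0.00534), while the other 6 had adjusted p from 0.188 to 0.891. All 7 had a higher mean with DFMO, but 3 of the 6 without a call turned sign when 1 library was left out (Control replicate 2, DFMO replicate 1 or DFMO replicate 3). The 7 are not independent. A 51-nt exon (from 74043118) and a 42-nt exon without a call (from 74043879) had identical skipping reads, 9, 3 and 1 in Control and 0, 0 and 1 with DFMO. ATXN2, an RNA-binding protein, had a 54-nt coding exon that rose from 51.3% ± 8.14 to 73.0% ± 5.98 (adjusted p = 0.0228). KIF23, the kinesin of the cytokinesis bridge, had a 42-nt coding exon that rose from 33.4% ± 3.22 to 50.1% ± 9.21 (adjusted p = 0.0498). TRIM46, which bundles microtubules at the start of the axon, had a 38-nt coding exon that rose from 52.5% ± 3.14 to 75.8% ± 5.79 (adjusted p = 0.0308). TACC2, a centrosome protein, had a 36-nt coding exon that rose from 6.39% ± 1.18 to 21.9% ± 4.22 (adjusted p = 0.0235). The calls of KIF23 (on dropping any library except DFMO replicate 1, 11.5 to 18.1 points), TRIM46 (any except DFMO replicate 2, 20.2 to 24.6 points), TACC2 (Control replicates 1 and 3 and DFMO replicates 1 and 2, each in turn, 13.2 to 16.3 points) and ATXN2 (Control replicate 1 and DFMO replicates 1 and 2, each in turn, 17.1 to 20.7 points) ended when a library was left out. KIF23 also lost the call with the replicate block and under the Control limits in place of those on the 6-library mean, and TRIM46 and TACC2 with the mean-percent filter removed.

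The rest of the higher exons by the naming rule were in MGRN1, an E3 ubiquitin ligase (45 nt, 27.9% to 44.9%, adjusted p = 0.00724), the cilium gene DZIP1 (55 nt, not annotated, 59.3% to 81.1%, adjusted p = 0.000708), STOML1, a stomatin-like membrane protein (45 nt, not annotated, 67.6% to 88.7%, adjusted p = 0.0188), and SNHG21, a snoRNA host RNA without coding sequence (56 nt, 58.3% to 82.8%, adjusted p = 0.0134). In DZIP1 the libraries of a group agreed within 1.27 points. STOML1 lost the call on dropping Control replicate 2, Control replicate 3 or DFMO replicate 1 (18.7 to 19.4 points) and SNHG21 on dropping Control replicate 1, Control replicate 3 or DFMO replicate 1 (21.3 to 23.4 points). Beyond the rule, and named after their values were seen, exons rose in AFMID, a kynurenine pathway enzyme (49 nt, 84.4% to 97.6%, adjusted p = 0.00107), GPN1, a GTPase for nuclear import of RNA polymerase II (40 nt, 80.9% to 93.5%, adjusted p = 0.00927), CCDC25 (52 nt, 61.8% to 75.3%, adjusted p = 0.00912), GAS8, of the motile cilium (44 nt, not annotated, 81.1% to 94.0%, adjusted p = 0.0172), and ECHDC1, a metabolite-proofreading decarboxylase (53 nt, 55.6% to 67.1%, adjusted p = 0.0268). The AFMID exon reached at least 97.1% in each DFMO library from at most 86.2% in Control. GAS8 lost the call on dropping Control replicate 1 or 3 (11.3 to 11.9 points) and ECHDC1 on dropping Control replicate 1, Control replicate 3, DFMO replicate 1 or DFMO replicate 2 (8.86 to 12.3 points).

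Inclusion fell in 5 exons. In FAM122B the 57-nt coding exon (chromosome X, 134789580 to 134789636, minus strand) had 52.9%, 42.8% and 46.4% in the Control libraries and 21.1%, 27.1% and 21.9% with DFMO (log2 odds -1.56, SE 0.27, adjusted p = 0.00446), with 15.6 points between the nearest libraries. ASPH, an aspartate hydroxylase of the endoplasmic reticulum, had a 45-nt coding exon (chromosome 8, 61682439 to 61682483, minus strand) with 38.3%, 38.7% and 45.1% in Control and 20.1%, 23.1% and 19.7% with DFMO (log2 odds -1.36, SE 0.22, adjusted p = 0.00223). DFMO libraries of both genes stayed below every Control library. ADAM22, the neuronal receptor of the secreted protein LGI1, had a 51-nt coding exon (chromosome 7, 87964634 to 87964684, plus strand) with 26.3%, 23.5% and 28.6% in Control and 11.6%, 14.2% and 13.3% with DFMO (adjusted p = 0.0377). An exon of CCDC136 that is not annotated (51 nt) had 90.1%, 88.4% and 89.8% in Control and 65.5%, 82.4% and 77.3% with DFMO (adjusted p = 0.0465). The ADAM22 call ended without any of the 6 libraries (11.8 to 14.4 points), with the mean-percent filter removed and with the replicate block, and so did that of CCDC136, there on dropping any except DFMO replicate 2 (9.63 to 15.5 points) and also on the percent scale. In C9orf142 (PAXX), of DNA end joining, a 44-nt exon that is not annotated went from 72.6% ± 6.29 to 58.6% ± 4.69 (adjusted p = 0.0492); this was named beyond the rule, and its call ended under the Control limits and on dropping any library except Control replicate 3 (10.6 to 15.8 points).

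The table also gives read numbers for the junction into the exon, the junction out of it and the skipping junction, so each called exon could be read from either side. In 38 of 39 called exons both inclusion junctions, each set against skipping, differed in the direction of the call, and in the same 38 the groups did not overlap at either junction. Both junctions share the skipping reads, and the call rests on the same reads, so this agreement is no separate support for a call. Overlap at both junctions was not counted over all tested exons. MTA1 had 113, 150 and 177 upstream, 141, 169 and 173 downstream and 81, 88 and 116 skipping reads in Control, and 294, 217 and 268 upstream, 336, 279 and 301 downstream and 21, 28 and 24 skipping reads with DFMO. So its inclusion reads went up at both ends while its skipping reads went down. APP had 611, 564 and 737 upstream, 458, 414 and 554 downstream and 1122, 974 and 1390 skipping reads in Control, and 1053, 978 and 1206 upstream, 876, 657 and 802 downstream and 1089, 927 and 1021 skipping reads with DFMO. Sides were uneven in some exons: for CASK the upstream junction went from 80.3% to 95.7% and the downstream one from 66.7% to 93.9%. C9orf142 was the exception, with 0 or 1 downstream reads in each library against 180 to 265 upstream ones, so its value rests on 1 junction and a complete cassette exon was not seen there.

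**Figure D3:**
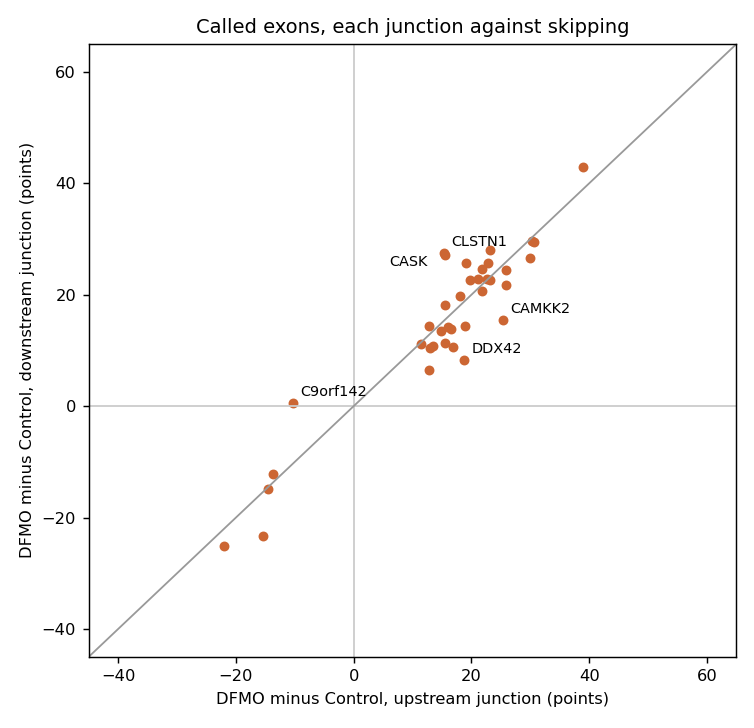
Difference of DFMO from Control, in percentage points, at the upstream junction (x axis) and the downstream junction (y axis) of 37 of the 39 called exons, each junction's reads taken against the skipping reads. The diagonal marks equal differences, the 5 of them whose junctions differ by more than 10 points are named, and all but C9orf142 lie in the quadrant of their call.

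Very well covered short exons could stay level. The 45-nt coding exon of GNAS, the stimulatory G protein subunit, had 76.8%, 77.0% and 76.1% in the Control libraries and 76.7%, 77.3% and 75.9% with DFMO on 8325 or more reads per library. Both means were 76.6% (log2 odds 0.00, SE 0.04, adjusted p = 0.993). Exons of ALDOA, a glycolytic aldolase (52 nt, 5′ UTR, 34.6% ± 1.88 and 36.2% ± 0.427), and of the RNA-binding proteins HNRNPH1 (50 nt, 90.0% ± 1.03 and 91.2% ± 0.443) and PCBP2 (42 nt, 87.3% ± 0.656 and 88.4% ± 0.445) differed by less than 2 points, as did FRG1 (58 nt, 52.3% ± 3.20 and 51.2% ± 0.706). None of the 5 passed the test (adjusted p from 0.304 to 0.993). Single junctions were less level in some. FRG1 went from 59.9% to 60.5% at the upstream junction and from 41.1% to 36.1% at the downstream one. PCBP2 went from 87.2% to 88.3% upstream and from 69.4% to 72.5% downstream, and its groups did not overlap at either junction. GNAS and HNRNPH1 differed by less than 2 points at each junction. The ALDOA value rests on 1 junction, with 5 to 13 upstream reads per library against 2022 to 2865 downstream ones. A complete cassette exon was not seen there.

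Size alone did not make a call. Of the tested short exons, 124 had means at least 10 points apart, and 85 of these, 65 higher and 20 lower, were not called. Their median standard error was 0.48 on the log2 odds scale and their median coverage 81 reads, against 0.29 and 184 reads for called exons. In the other direction, 54 exons were higher and 11 lower at an adjusted p below 0.05 whatever the size, with backgrounds of 4.47% and 1.25%. The 111 exons not tested had a 6-library mean below 5% (26) or above 95% (85), and none of them differed by more than 8.13 points.

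Within the size range, the called exons were not tied to one length. There were 2 called higher and 0 lower of 91 tested at 28 to 33 nt, 7 and 0 of 125 at 34 to 39 nt, 11 and 2 of 179 at 40 to 45 nt, 7 and 2 of 240 at 46 to 51 nt and 7 and 1 of 397 at 52 to 60 nt. Medians of the difference ran from 1.37 to 1.86 points over these bins. Of the 39, 29 were coding, 22 of them with a length that is a multiple of 3. Coding exons with such a length had 19 higher and 3 lower of 361 tested (median 2.52 points, 69.3% above 0) and the other coding exons 7 higher and 0 lower of 219 (2.43 points, 68.9%). Coding exons of 61 to 250 nt, here not held to the Control limits, had 111 higher and 26 lower of 3177 (4.31%), with a median of 1.48 points and 62.4% above 0. Coding exons of 28 to 60 nt had 26 higher and 3 lower of 580 (5%). Exons in the 5′ UTR had 1 higher and 0 lower of 72 and a median below 0 (-0.36 points), and exons that are not annotated 4 higher and 2 lower of 251 (0.75 points). Inclusion in Control leaves more or less room for a change in points: exons at 20% to 60% in Control held 21 of the 34 higher and 3 of the 5 lower calls among 195 tested. These counts are descriptions, without a test of one group against another, and stand beside 2.71% called higher and 0.747% lower over all tested exons. Counts by level in Control were not made for exons of other lengths, so they do not set the short exons apart.

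**Figure D4:**
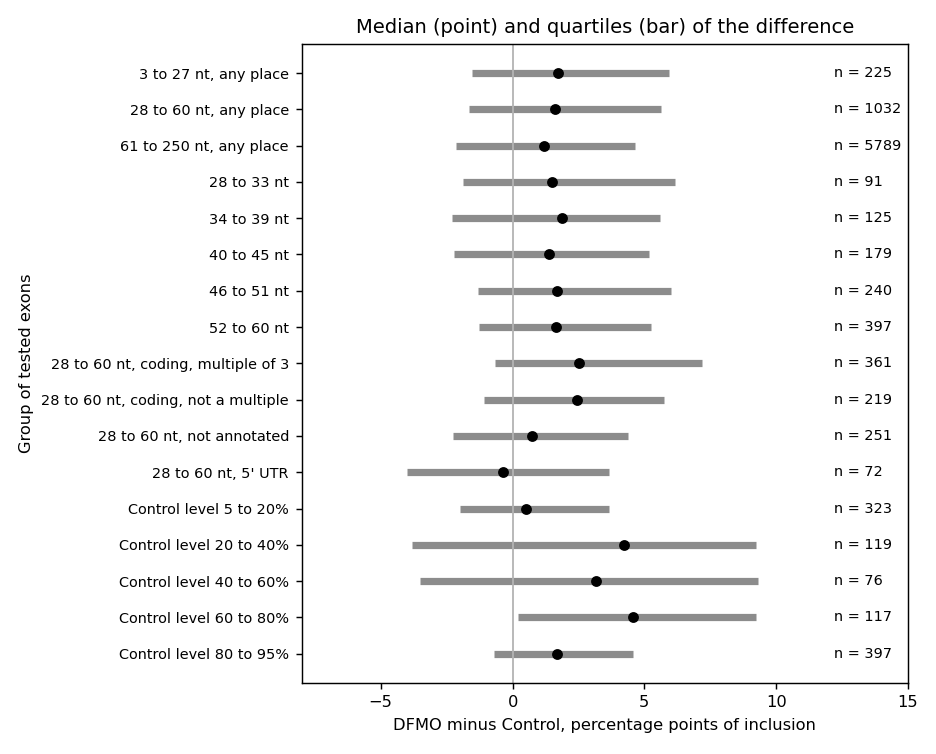
Median (black point) and quartiles (grey bar) of DFMO minus Control, in percentage points of inclusion (x axis), for groups of tested exons (y axis) by length, place in the gene and level in Control, with the number of exons at the right. The 5′ UTR group is the one drawn with a median below 0 (-0.36 points).

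Sequence was available for 778 tested short exons, as those that match a GENCODE 29 exon. In the sense of the transcript alone, the RBFOX motif TGCATG lay in 10 of them (1.29%), against 2.93% of exons of 61 to 250 nt. The 10 included the called exons of FIP1L1 and ECHDC1, which rose, out of 30 exons called higher with a sequence. Others with the motif had adjusted p from 0.0105 to 0.974. A GAAGAA motif, of the kind bound by SR proteins, lay in 41 (5.27%) and in 0 of the called exons, against 10.1% of the 61 to 250 nt class. Median GC content was 46.7% in the 778 exons and 48.2% in the 30 called higher. Longer exons hold more positions for a motif, introns were not searched, and a match is no evidence of binding.

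Exons of other lengths were called in 10 of the 37 genes with a called short exon. These genes had 57 tested exons of other lengths, of which 10 were called (17.5%, beside 3.45% of all tested exons), 1 in each of 10 genes and 7 of them in the direction of the nearest called short exon. SEC31A had a 78-nt coding exon 825 nt from its first 39-nt exon, which rose from 54.0% ± 3.06 to 73.1% ± 3.93 (adjusted p = 0.00284). GPN1 had a 67-nt coding exon 767 nt away that rose from 80.3% ± 3.24 to 93.0% ± 2.88 (adjusted p = 0.00987). CASK went the other way: its 69-nt coding exon, 1396 nt from the 36-nt one, fell from 46.7% ± 7.03 to 27.9% ± 3.23 (adjusted p = 0.0304). Exons of opposite direction were likewise found in KIF23 (137 nt, 93.9% to 81.5%, adjusted p = 0.00446) and ADAM22 (87 nt, 36.1% to 54.3%, adjusted p = 0.0107). The CASK call ended on dropping Control replicate 2, Control replicate 3, DFMO replicate 1 or DFMO replicate 3 (16.6 to 18.0 points), and that of KIF23 without DFMO replicate 2 (9.84 points). All 10 calls ended without the variance trend and with quasi-binomial regression. Events of 1 gene share its reads and are not independent.

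Retention of the introns around short exons, a readout the choice of exons did not use, was called in few cases. Of 141 tested introns that border or hold 125 of the short exons, 5 were called higher and 4 lower, beside 1.74% higher and 2.06% lower of the 3684 introns tested. Their median difference was 1.93 points with 63.1% above 0, against 0.33 points and 53.2% over all tested introns. The 51 introns that hold a short exon had a median of 2.70 points with 66.7% above 0, and 4 were called higher and 0 lower. Splicing out such an intron whole skips its exon, so retention there is not independent of the exon's inclusion. The intron that holds the SPAG9 exon (2160 nt, chromosome 17, 50974948 to 50977107) had 8.92%, 4.95% and 9.40% retained in Control and 21.9%, 23.1% and 14.5% with DFMO (adjusted p = 2.09e-04). It was the 1 called of 4 tested introns around called exons, and its groups did not overlap. This intron is the span removed when the SPAG9 exon is skipped. Reads of the skipping junction were 121, 133 and 149 in Control and 96, 70 and 91 with DFMO. The retention of this intron is therefore no separate support for the exon's change. SOS1 had an intron elsewhere in the gene, of 3326 nt, that rose from 8.88% ± 0.441 to 21.4% ± 6.78 (adjusted p = 0.00635), a call that ended without DFMO replicate 1 or 2 (10.4 to 10.7 points). Other called introns lay by exons that were not called, with higher retention in TARBP1, NBN, SLC25A36 and ZC3HAV1L and lower retention in PUSL1, INPP4A, APTX and JMJD8. Of these, the ZC3HAV1L call held whichever library was left out, and each of the others ended in at least 1 such run. SLC25A36 lost its call without any of the 6 libraries. PUSL1 lost it on dropping any library except DFMO replicate 2 and with the replicate block. Without the variance trend none of these 10 introns passed (adjusted p from 0.113 to 0.352). Among splice-site events in genes of called short exons, limma called 0 of 46 acceptors and 0 of 27 donors (8 and 4 had an unadjusted p below 0.05), beside 1.17% and 1.93% of all those tested.

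Levels of the genes for short-exon regulators moved little. Because the table has no gene counts, a junction-read proxy stood in: the mean over a gene's exon events of log2 of 1 plus its reads, scaled to 1e+06 event reads in each library. The pseudocount of 1 understates changes of low genes. Of 56 regulators, 47 had a value, and 8 rose and 12 fell at an adjusted p below 0.05, against 20.7% and 25.1% of the 9232 genes measured. None of the 47 passed 1.5-fold, as 0.347% of all genes did. The 5 highest that passed were RBM20 (log2 difference 0.25), MBNL2 (0.23), HNRNPA1 (0.20), RBM4 (0.19) and NOVA1 (0.15), the HNRNPA1 value resting on 1 exon event. HNRNPA1 no longer passed with a pseudocount of 0.5 or on dropping any library except Control replicate 1 (0.12 to 0.23). The 5 lowest were RBM38 (-0.35), ELAVL1 (-0.22), SRSF1 (-0.17), TIAL1 (-0.17) and U2AF2 (-0.16). SRRM4, an activator of neural microexons, had a proxy of 0.66 ± 0.02 in Control and 0.63 ± 0.02 with DFMO (adjusted p = 0.587), and PTBP1, a repressor of neural exons, 3.96 ± 0.05 and 3.95 ± 0.03 (adjusted p = 0.751). SRRM4 is among the low genes, so a change in it would be understated by the pseudocount. Whether any regulator bears on the exons was not tested.

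**Figure D5:**
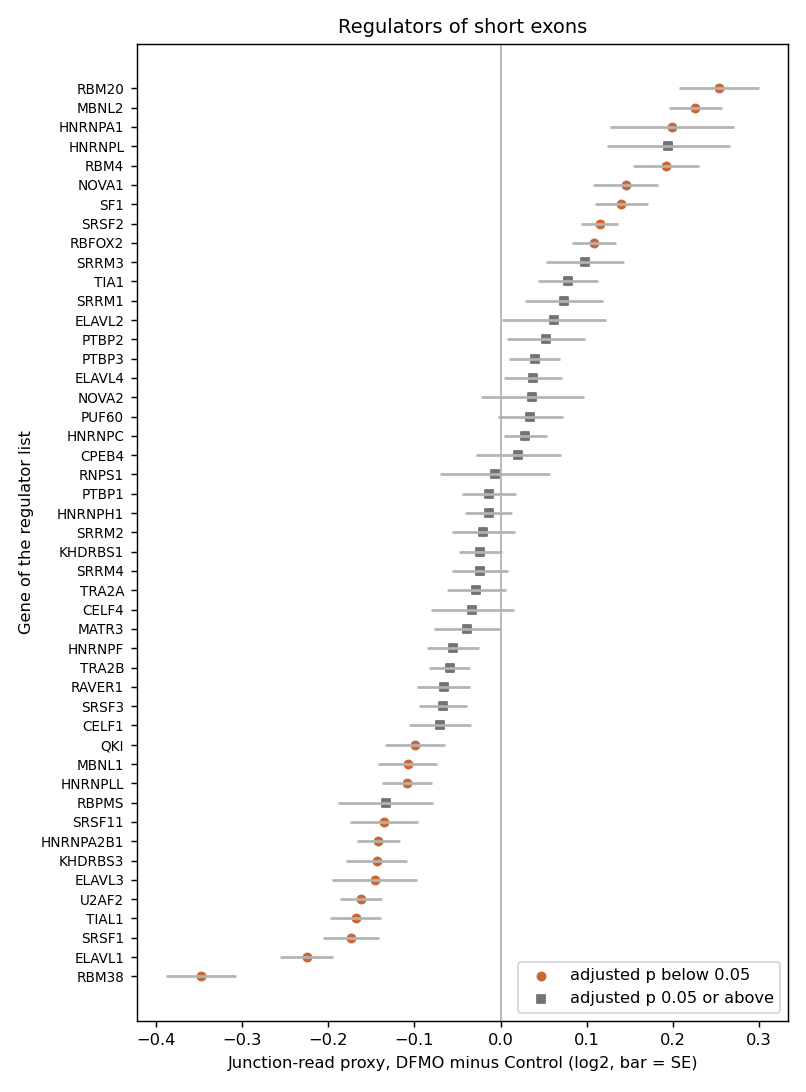
Junction-read proxy of 47 regulators of short exons (y axis), DFMO minus Control on a log2 scale (x axis), with the standard error as a bar. Orange circles passed an adjusted p of 0.05 and grey squares did not. The values run from -0.35 for RBM38 to 0.25 for RBM20.

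Regulators also carry short exons of their own. Their list had 17 tested exons, with 0 called higher and 0 lower by limma (5 at an unadjusted p below 0.05) and a median of 0.30 points. A 40-nt coding exon of RBFOX2, a regulator that binds TGCATG, had 81.2%, 85.4% and 86.1% in Control and 71.8%, 78.1% and 73.0% with DFMO (adjusted p = 0.0111), a mean difference of -9.93 points without overlap. Exons of PUF60 (51 nt, 55.7% ± 1.17 and 62.2% ± 2.30) and PTBP1 (57 nt, 92.0% ± 1.53 and 94.3% ± 0.429) did not pass (adjusted p = 0.0924 and 0.0694).

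By the same proxy, levels of the 37 genes with a called exon went either way. Of the 37, 9 rose and 10 fell at an adjusted p below 0.05, beside 20.7% and 25.1% of all genes measured, with a median log2 difference of -0.0016. None passed 1.5-fold, the highest being STOML1, which rose by 0.55 (adjusted p = 6.48e-05). DDX42 rose by 0.35, GAS8 by 0.27 and APP by 0.18, DZIP1 fell by 0.27, and MTA1 differed by 0.04 (adjusted p = 0.222). Inclusion itself adds junction reads to the proxy, so the proxy is not independent of the exons. Cell type markers moved as well. Of the 13 noradrenergic neuroblast markers measured, 6 rose and 3 fell, from STMN2, a microtubule regulator of neurons (log2 difference -0.41), to CHGB, a granin of secretory granules (0.49). GATA3 and PHOX2A, transcription factors of sympathetic neurons, rose by 0.43 and 0.49. The log2 of the list's summed proxy was 8.77 to 8.80 in the Control libraries and 8.81 to 8.83 with DFMO. Of the 6 mesenchymal, Schwann cell and fibroblast markers measured, THY1 rose (0.10) and DCN fell (-0.40), and the summed proxy ran from 4.69 to 4.76 in Control and from 4.75 to 4.78 with DFMO. The part of these markers in the exon changes was not tested.

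The limits on length and level cut through a continuum. Among the covered exons of 28 to 60 nt, 2979 lay below 5% in Control and 5257 above 95%, of 9379 in all. Just inside the lower limit was a 33-nt exon of C9orf72 at 5.003%, and just outside a 43-nt exon of POU2F1 at 4.98%. At the upper limit a 60-nt exon of LIMK2 at 94.99% was inside and a 59-nt exon of TIMM23 at 95.02% outside. At the length limits, 3 exons of 28 nt and 64 of 60 nt were inside, next to 31 of 27 nt and 55 of 61 nt outside.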

How the data were processed

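Splicing was measured by RNA-seq in 6 libraries, 3 Control and 3 DFMO. The deposited table holds, per the file headers, a percent for each event and library, the authors' unit for inclusion, and a quality text with a coverage score and read numbers, the authors' count of reads for inclusion and exclusion. These reads are the total split by the percent, which they give back within 0.5 points in 100% of entries, so they are no independent check. Genome build GRCh38 is named in the submitters' processing notes and single reads of 100 nt in the labels' protocols. The names of the aligner and the quantifier were not given in the sources used here.

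Tests used the log2 odds of inclusion after adding 0.5 to each read number, in limma 3.58.1 under R 4.3.3 (robust empirical Bayes, variance trend on the expected counting variance) over 7500 exons with a mean over the 6 libraries of 5% to 95%. Two-sided p-values were Benjamini-Hochberg adjusted over all 7500. The fit was tested on simulated data. Introns and splice sites were fitted in the same way. Pairs of libraries of a group varied by 2.10 to 2.26 times the counting variance. Errors are SDs over 3 libraries unless an SE is named.

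Places in genes and sequences came from GENCODE 29, which matched 867 of the 1143 exons. The rule for named exons took called exons by size, 1 per gene and at most 30, 5 level exons with the smallest SE, exons at the limits, up to 4 exons per gene list, and 5 regulators each way. Results for 3 genes are not reported here, though their exons stay in the counts. Exons, lists (8 by function, 3 of markers) and tests were chosen with earlier results of these data known. Replicate numbers did not pair the libraries (correlations of deviations -0.0202, -0.00217 and -0.00697). Alternatives were the offset, scale, trend, test, filters, replicate block and each library left out, with junction read numbers added after the data were seen.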

Additional observations from a re-analysis of the deposited data

How the results depend on the processing

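No called difference changed direction under any alternative run, but many calls were lost, and the cause was not tested. Among named exons without a call, GNAS (0.01 points) went to -0.04, -0.27 and -0.31 points without DFMO replicate 1, Control replicate 3 and DFMO replicate 2, and 3 exons of ELN (1.71, 4.32 and 2.84 points) to -1.45, -0.65 and -0.81 points without Control replicate 2, DFMO replicate 1 and DFMO replicate 3. The main counts were 34 short exons higher and 5 lower. Without the variance trend they were 3 and 0, and with quasi-binomial regression 3 and 0. Without a size threshold they were 54 and 11, and with junction read numbers, chosen after seeing the data, 55 and 7. With no filter on the mean percent 32 rose and 3 fell. With the replicate number as a block, 34 rose and 3 fell, and 35 of the 39 calls were kept. An offset of 0.1, the percent scale, at least 20 reads, scores of OK or SOK and the Control limits gave 32 to 40 higher and 4 to 5 lower. Leaving out 1 library gave 22 to 36 higher and 2 to 4 lower, the fewest without Control replicate 1 (22 higher), and 17 of the 39 calls held each time. For introns beside short exons, 5 higher and 4 lower became 0 and 0 without the trend, 5 and 3 with the replicate block, and 3 to 5 and 2 to 4 without a library. Regulators ran from 7 to 9 higher and 8 to 13 lower over all settings. The DDHD1 exon, with as few as 28 reads, kept its call whichever library was left out and lost it without the variance trend and with quasi-binomial regression. Whether depth bears on the lost calls was not tested.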

Other observations

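A few exons of the same length lay just outside the limits on the Control level and yet passed the adjusted p. Of 86 tested exons of 28 to 60 nt outside them (52 below 5% and 34 above 95% in Control), limma called 0 at 10 points or more, and 3 had an adjusted p below 0.05 with smaller differences. A 57-nt exon of LUC7L, a U1 snRNP-associated splicing factor, that is not annotated had 2.21%, 2.37% and 1.81% in Control and 10.2%, 7.03% and 8.62% with DFMO (adjusted p = 0.00927). The DFMO libraries lay above every Control library. A 56-nt exon of PCNX4 that is not annotated was lower with DFMO, with 95.7% ± 2.12 and 86.9% ± 1.35 (adjusted p = 0.0276). Since exons were kept by their Control level, such exons of low or near-full inclusion in Control are missing from the counts.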
